A study of Mus musculus with 12 samples.

Results

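Ribosome profiling and mRNA sequencing of RAW264 cells covered 9 genes of the cytosolic and mitochondrial heat shock protein families among the 9621 genes listed in the files. The genes were taken by symbol and all 9 are listed. Hsp90aa1 (ENSMUSG00000021270) and Hsp90ab1 (ENSMUSG00000023944) encode HSP90, and Hspa8 (ENSMUSG00000015656) encodes the constitutive cytosolic HSP70. Hspa4 (ENSMUSG00000020361) and Hsph1 (ENSMUSG00000029657) encode HSP110-type relatives of HSP70, and Dnaja1 (ENSMUSG00000028410) encodes a J-protein. Hspa9 (ENSMUSG00000024359), Hspd1 (ENSMUSG00000025980) and Hspe1 (ENSMUSG00000073676) encode the mitochondrial HSP70, HSP60 and HSP10. RAW264 is a transformed mouse macrophage line, so a single line stands for the cell type. The LPS + DEX group received bacterial lipopolysaccharide (LPS, 100 ng/ml) with the glucocorticoid dexamethasone (DEX, 10 µM) for 30 min, the LPS group received LPS at the same concentration and time without DEX, and the basal group was left unstimulated. Cells of every group, basal included, were incubated with 100 µg/ml cycloheximide, which holds elongating cytosolic ribosomes in place, before extraction. Ribosome-protected fragments (RPF, called footprints below) and poly(A) mRNA were sequenced, with 2 libraries from independent biological replicates for each of 3 treatments and each assay, 12 libraries in all.

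These proteins fold newly made polypeptides, keep unstable proteins from aggregating and hand clients from one chaperone to the next. J-proteins bring a client to HSP70 and stimulate its ATPase, HSP110-type proteins release ADP from HSP70, and HSP90 takes over many signalling proteins for late maturation. The glucocorticoid receptor, the receptor of DEX, is a classic client that HSP70 and HSP90 keep in a ligand-binding state. In the mitochondrial matrix HSP70 pulls imported precursors through the inner membrane, and the HSP60 barrel folds them under a lid made of HSP10. All 9 proteins are encoded in the nucleus and translated by cytosolic ribosomes. Many heat shock genes carry heat shock elements, inverted repeats of a short GAA unit bound by the transcription factor HSF1.

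Promoter sequences are shown for Hspd1, Hspe1 and Dnaja1, whose values correlated positively over the 12 libraries with both assays pooled. They are also shown for Hsph1, whose pooled correlations with these genes were negative. Correlation within a single assay was not computed. A link between these sequences and the values was not tested. They come from RefSeq on build GRCm38.p6, in windows of 300 bases from 250 before to 50 after a gene start, and 5 of the 9 genes have such windows. Hspd1 and Hspe1 lie head to head on chromosome 1, on the minus and the plus strand. The 215 bases between an Hspd1 start and the Hspe1 start, chr1:55087933-55088147 on the plus strand, hold an 18-base run of 4 alternating GAA and TTC units, in capitals. It begins 89 bases before the Hspe1 start and, read from the other strand, 144 bases before that Hspd1 start. RefSeq lists a further Hspd1 start on the far side of the Hspe1 start.
Hspd1-Hspe1 interval: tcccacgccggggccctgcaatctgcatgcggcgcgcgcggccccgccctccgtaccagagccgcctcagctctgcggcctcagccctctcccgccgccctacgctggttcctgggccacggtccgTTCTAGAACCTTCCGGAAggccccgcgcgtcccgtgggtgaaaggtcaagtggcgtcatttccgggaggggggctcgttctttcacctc
For Hsph1, chr5:149636337-149636396 on the minus strand, the capitals mark a pair of units that begins 33 bases before a gene start.
Hsph1 upstream: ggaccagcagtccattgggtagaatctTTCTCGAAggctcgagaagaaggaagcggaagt
For Dnaja1, chr4:40722318-40722377 on the plus strand, the capitals mark a pair of units that begins 124 bases before the first listed start.
Dnaja1 upstream: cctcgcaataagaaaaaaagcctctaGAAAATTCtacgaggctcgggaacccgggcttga
The search used GAANNTTC and TTCNNGAA for 2 units, each of which reads the same on both strands, and GAANNTTCNNGAA and TTCNNGAANNTTC for 3 overlapping units. Of 32851 windows, 15.1% hold a match of 2 units and 0.603% a match of 3 units. A match of 3 units was found in windows of Hspd1, Hspe1 and Hsph1, for Hsph1 after the gene start and not printed, a match of 2 units alone in a window of Dnaja1, and no match in the window of Hspa4.

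The mRNA libraries held 1475119 to 2529666 reads and the footprint libraries 821946 to 1833558 reads. The lowest number of reads for any of the 9 genes in any library was 121. Values are CPM, read counts scaled to a common library total but not by gene length, so a level is compared between treatments or assays and not between genes. A lower CPM cannot tell fewer cells holding an mRNA from less of it per cell. Of 18 macrophage markers 17 are listed, and their summed level was 11569 to 13883 CPM in footprints and 9727 to 11143 CPM in mRNA. Of the mRNA libraries, basal replicate 1 differed most from the rest, with Spearman correlations across genes of 0.781 to 0.831 with the other mRNA libraries, against 0.894 to 0.98 among those. The epithelial keratin gene Krt7 had 1108 CPM in it and at most 1.98 CPM in the other mRNA libraries, and the other listed epithelial marker, Ddr1, had 923 CPM and at most 4.83 CPM. These are the 2 of 9 epithelial markers listed, and their sum was 2032 CPM in that library, 2.2 to 6.7 CPM in the other mRNA libraries and 17.5 to 75.4 CPM in footprints. Krt8, Krt18, Krt19, Epcam, Cdh1, Cldn4 and Cldn7 are not listed, so an epithelial source of these reads is not shown. Of 9 fibroblast and endothelial markers 1 is listed, Col3a1, and none of 7 lymphocyte markers is. Col3a1 had 60.8 to 142 CPM in footprints. Its mRNA had 75.1 and 61.6 CPM in LPS + DEX, 46.7 and 51.4 CPM in LPS and 3.39 and 16.2 CPM in basal cells. The part of these differences in the results was not tested. Results that use the basal mRNA are therefore also given without that library.

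The 9 genes together took 1.87% and 1.78% of footprint reads in LPS + DEX, 1.54% and 1.58% in LPS and 1.63% and 1.53% in basal cells. Of mRNA reads they took 0.952% and 0.984% in LPS + DEX, 0.868% and 0.889% in LPS and 0.722% and 0.785% in basal cells. Both shares were highest in LPS + DEX, without overlap with the other treatments, and these sums were not tested. Hspa8 and Hsp90ab1 carried the difference: without them the other 7 genes summed to 7621 and 7016 CPM of footprints in LPS + DEX, 7584 and 7487 CPM in LPS and 6825 to 7604 CPM in basal cells, with overlap. Their mRNA summed to 2029.5 and 2594 CPM in LPS + DEX, 2899.5 and 2135 CPM in LPS and 2807 and 3148 CPM in basal cells, so LPS + DEX lay below basal cells. Changes of single genes were tested with limma on log2(CPM + 1), with Benjamini-Hochberg adjustment over all genes tested and a threshold of 0.05, and the error given with a log2 fold change is its standard error (SE). In mRNA, 2 of the 9 genes passed for LPS against basal, 1 higher and 1 lower, where 10.7% of all genes passed, 9.03% higher and 1.68% lower. For LPS + DEX against basal 4 of 9 mRNAs passed, 2 higher and 2 lower, where 22.7% of all genes passed, 18.5% higher and 4.23% lower. For LPS + DEX against LPS 0 of 9 mRNAs passed and 0% of all genes, with 1 of 9 at an unadjusted p under 0.05 and 0 by limma-voom. In footprints, 0 of 9 passed for LPS against basal, where 7.62% of all genes passed, with 2 of 9 at an unadjusted p under 0.05 and 0 by limma-voom. For LPS + DEX the footprints of 2 of 9 rose against LPS and of 1 of 9 against basal, where 3.14% and 1.77% of all genes rose and 6.69% and 4.63% changed in either direction. In mRNA the libraries of 5 of 9 genes did not overlap between LPS and basal cells, of 4 between LPS + DEX and LPS and of 6 between LPS + DEX and basal cells, beside 61%, 31.4% and 64.1% of all genes. In footprints they did not overlap for 2 of 9 between LPS and basal cells, 5 between LPS + DEX and LPS and 5 between LPS + DEX and basal cells, beside 50.4%, 51.1% and 50.4% of all genes. Comparisons that share a group of libraries are not independent of each other.

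**Figure D1:**
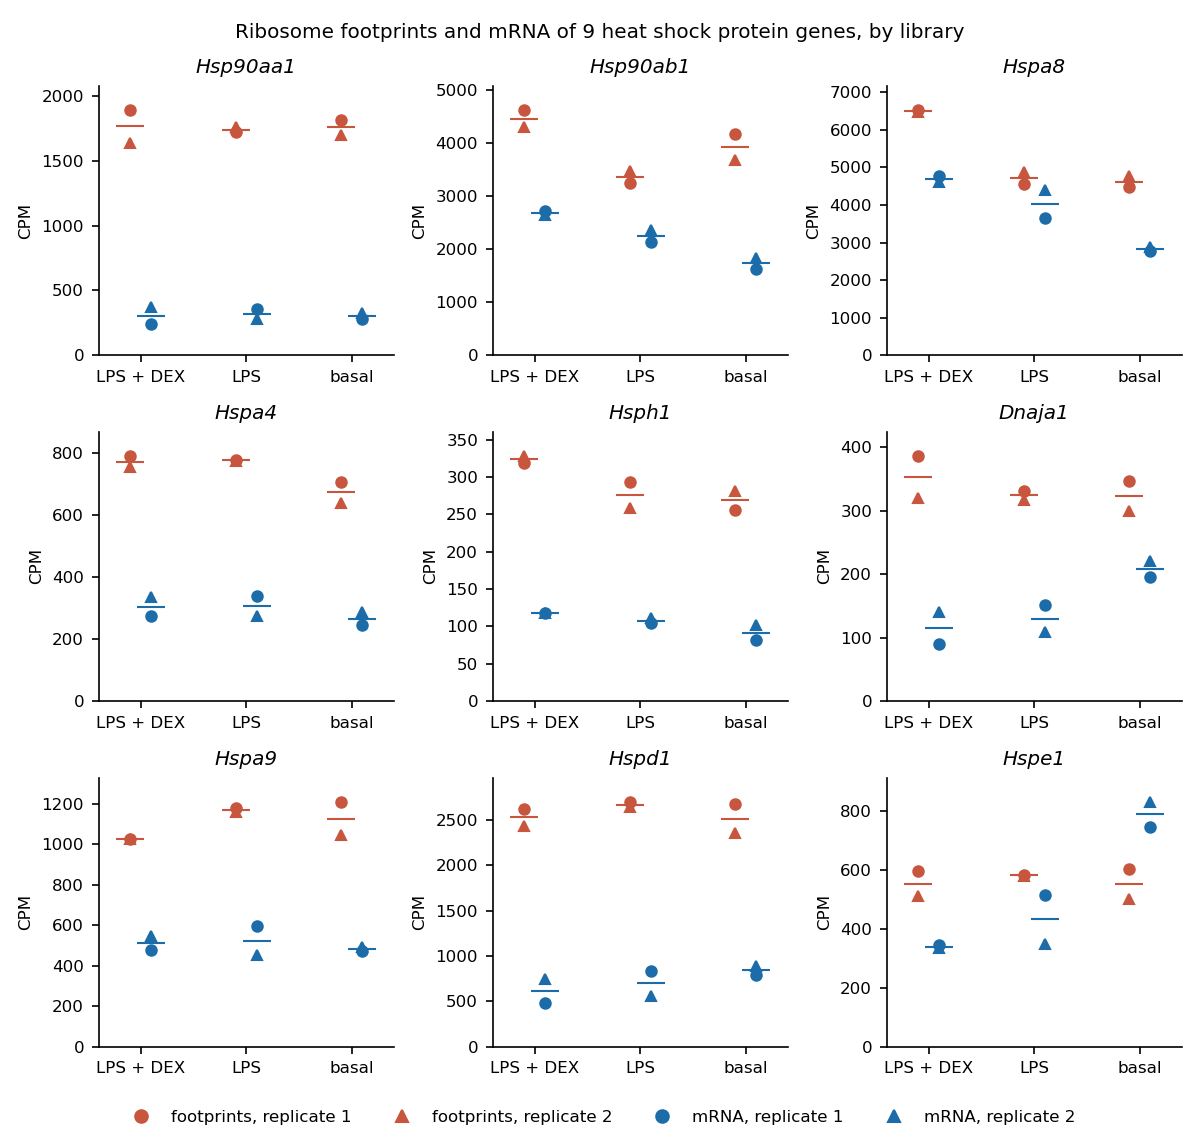
CPM (y axis, linear, from 0) of each of the 9 genes in every library, with footprints in red left of mRNA in blue within each treatment, circles for replicate 1, triangles for replicate 2 and bars for the mean of 2 libraries. Footprints lie above mRNA in every treatment for 8 genes, and for Hspe1 the mRNA lies above the footprints in basal cells.

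Of the HSP90 isoforms, Hsp90ab1 passed in several comparisons and Hsp90aa1 in none of the changes between treatments. Hsp90ab1, which encodes the constitutive isoform HSP90 beta, had 4612 and 4294 CPM of footprints in LPS + DEX, 3243 and 3481 CPM in LPS and 4169 and 3685 CPM in basal cells. Its mRNA had 2720 and 2651 CPM in LPS + DEX, 2133 and 2356 CPM in LPS and 1633 and 1830 CPM in basal cells. The 3 treatments did not overlap in either assay, with footprints lowest in LPS and mRNA lowest in basal cells. Footprints rose by 0.41 ± 0.08 (log2, SE) in LPS + DEX against LPS (limma, adjusted p = 0.0066), and measured 0.18 ± 0.08 against basal (adjusted p = 0.234). Its mRNA rose by 0.63 ± 0.11 in LPS + DEX against basal (adjusted p = 0.0107), while LPS against basal measured 0.37 ± 0.11 (adjusted p = 0.0661). The ratio of footprints to mRNA, called translational efficiency (TE) on the log2 scale, fell by 0.60 ± 0.13 in LPS against basal (adjusted p = 0.00947) and by 0.45 ± 0.13 in LPS + DEX against basal (adjusted p = 0.0357). With median-of-ratios scaling these TE changes were -0.30 and -0.12 and neither passed, and the mRNA rise in LPS + DEX against basal was 0.34 (adjusted p = 0.0632).

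Hsp90aa1, which encodes the stress-responsive isoform HSP90 alpha, had 1887 and 1640 CPM of footprints in LPS + DEX, 1719 and 1757 CPM in LPS and 1815 and 1701 CPM in basal cells. Its mRNA had 237 and 375 CPM in LPS + DEX, 358 and 280 CPM in LPS and 282 and 324 CPM in basal cells. The treatments overlapped in both assays, and its changes against basal were between -0.02 and 0.07 (log2) in mRNA and footprints, none of which passed. The SE of its mRNA changes was 0.23, against 0.11 for Hsp90ab1, so the mRNA data limit what could be detected for Hsp90aa1. Footprints exceeded mRNA by 2.56 ± 0.18 in LPS + DEX, 2.45 ± 0.18 in LPS and 2.54 ± 0.18 in basal cells, the largest such ratio of the 9 genes in each treatment. Footprints come mainly from coding sequence and mRNA reads from the whole transcript, so the length of untranslated sequence enters the level of this ratio but cancels in its change.

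Hspa8, the constitutive cytosolic HSP70 that also uncoats clathrin vesicles, showed the largest footprint change of the set. Its footprints reached 6516 and 6470 CPM in LPS + DEX, against 4561 and 4865 CPM in LPS and 4486 and 4760 CPM in basal cells. Its mRNA had 4766 and 4599 CPM in LPS + DEX, 3648 and 4394 CPM in LPS and 2783 and 2875 CPM in basal cells. LPS + DEX stood above both other treatments in both assays, and LPS overlapped basal cells in footprints but not in mRNA. Footprints of Hspa8 rose by 0.46 ± 0.07 in LPS + DEX against LPS (limma, adjusted p = 0.000894) and by 0.49 ± 0.07 against basal (adjusted p = 0.000566). These footprint calls held in every alternative run and without each of the 6 footprint libraries in turn, with log2 fold changes of 0.42 to 0.51 and 0.45 to 0.53 when a library was left out. Hspa8 mRNA rose by 0.50 ± 0.12 in LPS against basal (adjusted p = 0.0396) and by 0.73 ± 0.12 in LPS + DEX against basal (adjusted p = 0.00962), and measured 0.23 ± 0.12 in LPS + DEX against LPS (adjusted p = 0.9996). Against basal the TE of Hspa8 fell by 0.47 ± 0.12 in LPS (adjusted p = 0.0223), and measured -0.24 ± 0.12 in LPS + DEX (adjusted p = 0.221). With median-of-ratios scaling the mRNA change in LPS was 0.24 (adjusted p = 0.248) and the TE changes were -0.18 in LPS and 0.10 in LPS + DEX, and none of these passed.

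The HSP110-type genes, whose products act as nucleotide exchange factors of HSP70, had no call for a change between treatments in either assay or in TE. Hspa4 had 789 and 755 CPM of footprints in LPS + DEX, 778 and 774 CPM in LPS and 706 and 639 CPM in basal cells, and its mRNA ranged from 243 to 339 CPM over the 6 libraries. Its footprints were higher in LPS and in LPS + DEX than in basal cells without overlap, by 0.21 ± 0.08 (adjusted p = 0.157) and 0.20 ± 0.08 (adjusted p = 0.23). Hsph1 had 319 and 328 CPM of footprints in LPS + DEX, 293 and 258 CPM in LPS and 256 and 281 CPM in basal cells. Its mRNA measured 118 and 118 CPM in LPS + DEX, 104 and 112 CPM in LPS and 82.0 and 101 CPM in basal cells. Like those of Hspa8, the Hsph1 values in LPS + DEX stood above both other treatments in both assays, at log2 fold changes of 0.23 ± 0.11 in footprints against LPS (adjusted p = 0.224) and 0.37 ± 0.16 in mRNA against basal (adjusted p = 0.129).

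Dnaja1, a J-protein that delivers clients to cytosolic HSP70, had less mRNA in LPS + DEX than in basal cells, with footprints that overlapped between treatments. Its mRNA measured 90.5 and 140.0 CPM in LPS + DEX, 151 and 109 CPM in LPS and 195 and 220.3 CPM in basal cells, and both stimulated groups lay below basal cells without overlap. Its footprints were at 386 and 320 CPM in LPS + DEX, 332 and 318 CPM in LPS and 346 and 299.9 CPM in basal cells, with overlap between all treatments. Dnaja1 mRNA fell by 0.88 ± 0.24 in LPS + DEX against basal (log2, limma, adjusted p = 0.0382), and measured -0.69 ± 0.24 in LPS against basal (adjusted p = 0.103). Its footprint changes were 0.12 ± 0.11 (adjusted p = 0.641) and 0.01 ± 0.11 (adjusted p = 0.973) in the same comparisons. The TE of Dnaja1 rose by 0.999 ± 0.28 in LPS + DEX against basal (adjusted p = 0.0333) and measured 0.70 ± 0.28 in LPS against basal (adjusted p = 0.106), which passed at 0.995 with median-of-ratios scaling (adjusted p = 0.041). The gene table names 1 Dnaja1 pseudogene, which is not among the listed genes, so reads shared with it cannot be separated.

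Among the mitochondrial genes Hspe1, which encodes the HSP10 lid, showed the largest mRNA change of the 9 genes. Its mRNA measured 346 and 333 CPM in LPS + DEX, 516 and 347 CPM in LPS and 746 and 829 CPM in basal cells, with no overlap between treatments and basal cells highest. Its footprints were at 595 and 510.5 CPM in LPS + DEX, 584 and 579 CPM in LPS and 601 and 499.8 CPM in basal cells, and the treatments overlapped. Hspe1 mRNA fell by 1.21 ± 0.18 in LPS + DEX against basal (log2, limma, adjusted p = 0.00869) and by 0.89 ± 0.18 in LPS against basal (adjusted p = 0.0299), while its footprint changes measured 0.01 ± 0.11 and 0.08 ± 0.11 and did not pass (adjusted p = 0.984 and 0.689). TE of Hspe1 rose by 1.22 ± 0.23 (adjusted p = 0.00532) in LPS + DEX and by 0.98 ± 0.23 (adjusted p = 0.0122) in LPS, both against basal. Footprints exceeded mRNA by 0.70 ± 0.16 in LPS + DEX and 0.46 ± 0.16 in LPS, and lay 0.52 ± 0.16 below mRNA in basal cells. Hspe1 was the only one of the 9 genes whose footprints fell short of its mRNA in any treatment.

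Hspd1, which encodes the HSP60 barrel and lies head to head with Hspe1, had 2618 and 2437 CPM of footprints in LPS + DEX, 2697 and 2643 CPM in LPS and 2671 and 2359 CPM in basal cells. Its mRNA had 488 and 749 CPM in LPS + DEX, 836 and 560.1 CPM in LPS and 786 and 896 CPM in basal cells. The LPS mRNA overlapped both other treatments, the LPS + DEX mRNA lay below basal cells without overlap, and the LPS + DEX footprints lay below LPS without overlap. The mRNA changes of -0.47 ± 0.24 in LPS + DEX and -0.29 ± 0.24 in LPS against basal did not pass (adjusted p = 0.196 and 0.442), nor did the footprint changes of 0.01 ± 0.08 and 0.09 ± 0.08. Hspa9, the matrix HSP70 of the import motor, had 1027 and 1026 CPM of footprints in LPS + DEX, 1182 and 1159 CPM in LPS and 1209 and 1045 CPM in basal cells. Hspa9 footprints were lowest in LPS + DEX, at -0.19 ± 0.08 against LPS (adjusted p = 0.22), while its mRNA of 452 to 595 CPM overlapped between all treatments. The gene table names 6 pseudogenes of Hspe1, 5 of Hspd1 and 1 of Hspa9, none of which is listed, so the levels of these genes are uncertain by reads that near-identical copies share.

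Within a library the ratio of Hspd1 to Hspe1 reads was nearly constant in footprints and moved in mRNA. The footprint ratio was 4.40 and 4.77 in LPS + DEX, 4.62 and 4.56 in LPS and 4.44 and 4.72 in basal cells. In mRNA it was 1.41 and 2.25 in LPS + DEX, 1.62 and 1.61 in LPS and 1.05 and 1.08 in basal cells. The mRNA ratio was lowest in basal cells without overlap and spread most in LPS + DEX, and the footprint ratio overlapped between all treatments. The ratio is one of reads and not of molecules, since the transcripts differ in length, and it was chosen after the values were seen and not tested.

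**Figure D2:**
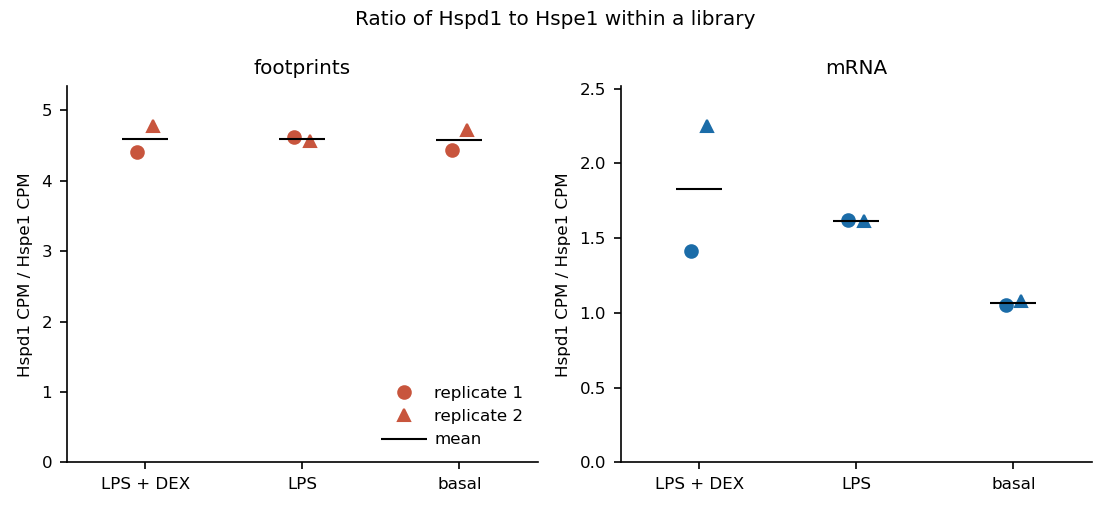
Hspd1 CPM divided by Hspe1 CPM (y axes, linear, from 0) in each library, with footprints in the left panel and mRNA in the right panel, circles and triangles for replicates 1 and 2 and black bars for the mean of 2 libraries. Footprint ratios stay between 4.40 and 4.77 in all treatments, while mRNA ratios run from 1.05 in basal cells to 2.25 in LPS + DEX.

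Set against each other, the footprint changes of the 9 genes spanned less than their mRNA changes. The mRNA changes also had larger SEs, 0.11 to 0.24 against 0.07 to 0.11 in footprints. The spans were not compared with those of other genes. In LPS against basal the footprint changes ran from -0.22 to 0.21 (log2) and the mRNA changes from -0.89 to 0.50, and in LPS + DEX against basal from -0.13 to 0.49 and from -1.21 to 0.73. The test of the difference is the TE change, which 3 of 9 genes passed in each of these comparisons, where 14.9% of all genes passed for LPS + DEX (2.68% higher and 12.2% lower) and 16.6% for LPS (3.08% higher and 13.6% lower). In LPS the TE of Hsp90ab1 and Hspa8 fell and that of Hspe1 rose, and in LPS + DEX the TE of Hsp90ab1 fell and that of Dnaja1 and Hspe1 rose. For LPS + DEX against LPS the TE of 0 of 9 genes passed, where 0.0531% of all genes did, with 0 of 9 at an unadjusted p under 0.05 and 0 by limma-voom. The median TE change of the 9 genes was -0.05 in LPS and 0.01 in LPS + DEX against basal, beside -0.34 and -0.34 over all genes tested. Median-of-ratios scaling raised the TE changes of all genes by a median of 0.288 for LPS and 0.325 for LPS + DEX, and lowered the mRNA changes by 0.256 and 0.285. The fall of Hspe1 mRNA and the rise of its TE passed under both scalings.

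**Figure D3:**
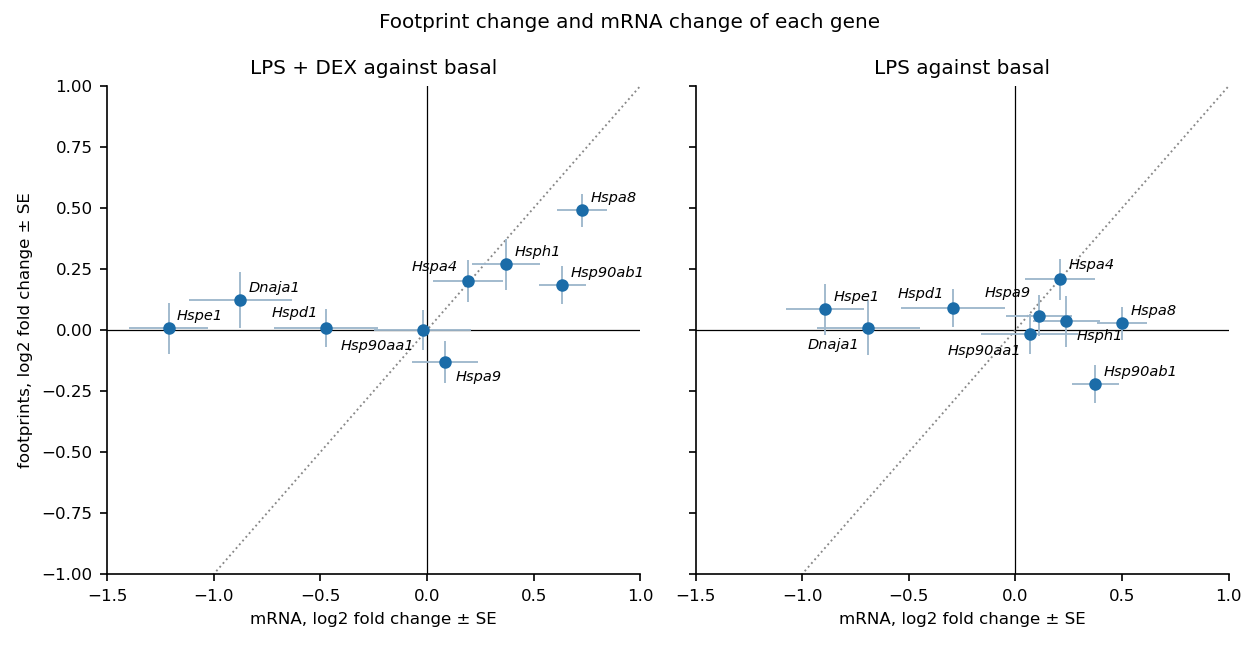
Log2 fold change of footprints (y axis) against that of mRNA (x axis) for each of the 9 genes, with LPS + DEX against basal on the left and LPS against basal on the right, where bars are ± 1 SE from limma and the dotted line marks equal change. Hspe1, Dnaja1 and Hspd1 lie left of 0 on the mRNA axis and near 0 on the footprint axis, while Hspa8 in LPS + DEX is the highest point on the footprint axis.

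Footprints exceeded mRNA for all 9 genes in LPS + DEX and in LPS, and for 8 of 9 in basal cells, where Hspe1 was lower. All 9 differences passed in each treatment, where 51%, 51.9% and 50.7% of all genes passed in LPS + DEX, LPS and basal cells, and 23.8%, 24.8% and 33.4% were higher in footprints, with 17.3% lower in basal cells. The median over the 9 genes was 1.35, 1.33 and 1.22 (log2) in LPS + DEX, LPS and basal cells, beside -0.08, -0.06 and 0.21 over all genes. The CCT and ER chaperones also had more footprints than mRNA, but not every list of chaperones or their partners did. Of 8 subunits of the cytosolic CCT chaperonin 7, 7 and 8 were higher in footprints and none lower, with medians of 0.55, 0.68 and 0.67. Of 20 ER chaperones 12, 13 and 13 were higher and 3 lower in each treatment, with medians of 0.62, 0.89 and 0.78. Of 19 further mitochondrial chaperones and proteases 2, 1 and 5 were higher and 6, 7 and 4 lower, with medians of -0.27, -0.36 and -0.21. Of 21 HSP90 cochaperones 7, 6 and 6 were higher and 6, 5 and 3 lower, with medians of -0.04, 0.04 and 0.06. Of 26 HSP70 cochaperones 9, 8 and 10 were higher and 5, 5 and 2 lower, with medians of 0.12, 0.09 and 0.43. Among the 9 genes Hspd1 followed Hsp90aa1 by the ratio of footprints to mRNA, at 2.06 ± 0.19 in LPS + DEX, 1.96 ± 0.19 in LPS and 1.58 ± 0.19 in basal cells. Hspa4 was at 1.35 in LPS + DEX, 1.34 in LPS and 1.34 in basal cells, with an SE of 0.13 in each, and its TE change in LPS against basal was 0.29 with median-of-ratios scaling. The smallest excess of the 9 genes was that of Hspa8 in LPS, 0.23 ± 0.09 (adjusted p = 0.0392), which did not pass by limma-voom (adjusted p = 0.0528). Dnaja1 in basal cells, at 0.63 ± 0.20 (adjusted p = 0.018), did not pass with median-of-ratios scaling (0.36, adjusted p = 0.154) or without replicate 1 of basal mRNA (0.55) or footprints (0.53). The basal difference of Hspe1 was lost without replicate 2 of basal mRNA (-0.44) or footprints (-0.39), and its LPS difference without mRNA LPS replicate 2 (0.17) or either footprint library of LPS (0.45 and 0.46). That of Hspa8 in LPS was lost without 7 of the 12 libraries, at 0.10 to 0.28.

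**Figure D4:**
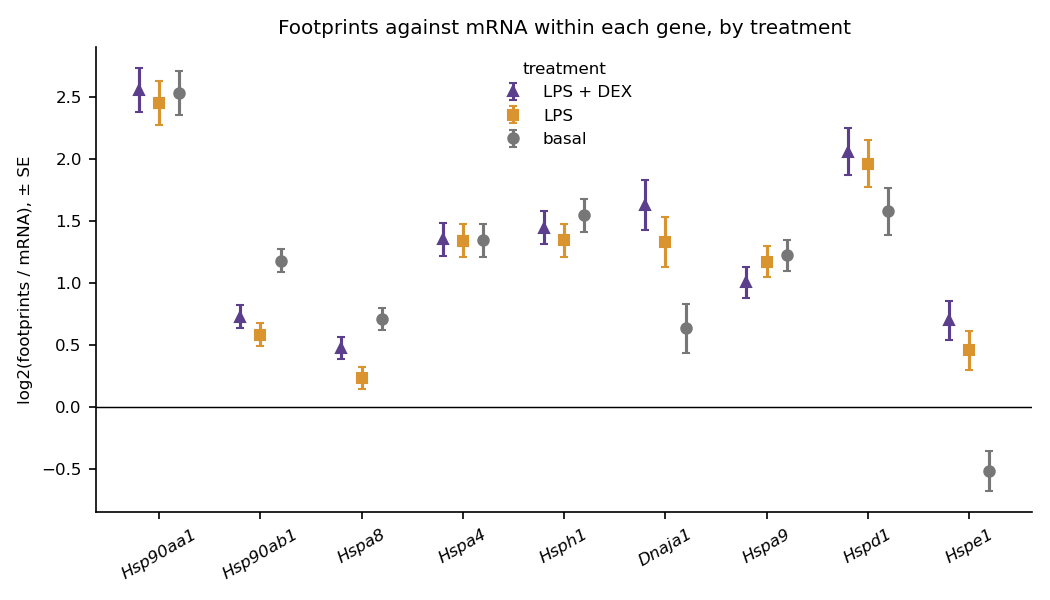
Log2 ratio of footprints to mRNA (y axis) for each of the 9 genes (x axis), with purple triangles for LPS + DEX, orange squares for LPS, grey circles for basal cells and bars of ± 1 SE from limma. Hspe1 in basal cells is the only point below 0, and the basal point lies above the others for Hsp90ab1, Hspa8, Hsph1 and Hspa9 and below them for Dnaja1, Hspd1 and Hspe1.

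Most calls against basal depended on single libraries. The exceptions were the footprint rise of Hspa8 in LPS + DEX, the TE fall of Hsp90ab1 in LPS (-0.69 to -0.51, adjusted p up to 0.0415) and the TE rise of Hspe1 in LPS + DEX, which passed without each library in turn. Of these, the TE fall of Hsp90ab1 did not pass with median-of-ratios scaling. Without the basal mRNA library that stood apart, 4 of 9 mRNAs passed for LPS + DEX against basal, as with it, and 1 of 9 for LPS, where Hspa8 (0.48, adjusted p = 0.101) was lost and Hspe1 (-0.97, adjusted p = 0.0136) passed. Under that omission TE passed for 2 of 9 genes in LPS, with Hspa8 lost (-0.45, adjusted p = 0.0636), and for 2 of 9 in LPS + DEX, with Hsp90ab1 lost (-0.37, adjusted p = 0.126). Without mRNA LPS + DEX replicate 1 all 4 mRNA calls of LPS + DEX against basal were lost, at log2 fold changes of 0.62 for Hsp90ab1, 0.70 for Hspa8, -0.56 for Dnaja1 and -1.24 for Hspe1, and 1 of 9202 genes in all passed. Dnaja1, unchanged at -0.88, also missed the threshold without either mRNA LPS library. Without mRNA LPS replicate 1 or 2, 13 and 7 genes in all passed for LPS against basal, and both member calls were lost at 0.64 and 0.37 for Hspa8 and -1.18 and -0.61 for Hspe1. Both were also lost, with the fold change unchanged, without either mRNA LPS + DEX library, whose omission takes a degree of freedom from the spread. The footprint rise of Hsp90ab1 in LPS + DEX against LPS was lost without LPS replicate 1 (0.35, adjusted p = 0.106), LPS + DEX replicate 1 (0.35, adjusted p = 0.112) or LPS + DEX replicate 2 (0.46, adjusted p = 0.0614).
TE calls were lost for Hspa8 in LPS without mRNA LPS replicate 2 (-0.34), footprint basal replicate 2 (-0.43) or footprint LPS replicate 1 (-0.43), and for Hspe1 in LPS without footprint basal replicate 2 (0.84, adjusted p = 0.0571). In LPS + DEX the TE call of Hsp90ab1 was also lost without mRNA LPS + DEX replicate 1 (-0.43), footprint basal replicate 1 (-0.36) or either footprint library of LPS + DEX (-0.50 and -0.40). The TE call of Dnaja1 there was lost without mRNA LPS + DEX replicate 1 (0.69), either footprint library of basal cells (1.10 and 0.89) or either of LPS + DEX (0.86 and 1.13). The Hspe1 TE rise in LPS + DEX against basal ran from 1.09 to 1.35 without single libraries.

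Across the 12 libraries, with log2(CPM + 1) centred on the mean of each assay, Hsp90ab1, Hspa8 and Hsph1 varied together, with Pearson r of 0.899 for Hsp90ab1 with Hspa8, 0.874 for Hspa8 with Hsph1 and 0.778 for Hsp90ab1 with Hsph1. Dnaja1, Hspd1 and Hspe1 formed another group, at r of 0.907 for Dnaja1 with Hspd1, 0.889 for Dnaja1 with Hspe1 and 0.746 for Hspd1 with Hspe1. Between these groups all r were negative, from -0.807 for Hspa8 with Hspe1 to -0.459 for Hsph1 with Hspd1. Hsp90aa1 also had r of 0.748 with Hspd1 and 0.519 with Dnaja1, but 0.161 with Hspe1. Of 36 pairs, 21 had r above 0. These correlations are descriptions over libraries that share treatments and depth. They pool both assays, and r within a single assay was not computed. In LPS + DEX against basal the mRNA changes of Dnaja1, Hspd1 and Hspe1 measured -0.88, -0.47 and -1.21. Their footprint changes measured 0.12, 0.01 and 0.01. Hsph1 measured 0.37 in mRNA and 0.27 in footprints there. Among 2867 genes with a mean of at least 50 CPM in both assays, those most like Hspe1 were Pdcd5 (r = 0.979), Snrpd1 (0.970) and Naca (0.966). For Hspd1 they were ENSMUSG00000021020, which the gene table does not name (0.972), Cops2 (0.960) and Capza2 (0.939). Dnaja1 was most like Npm1 (0.952), Ppid (0.949) and Psma5 (0.941). The nearest genes of Hspa8 were Tlr2 (0.970) and Ubap2 (0.966), and those of Hsp90ab1 Pygb (0.965), Polr3e (0.961) and Sf3b2 (0.955). Hsph1 was nearest to Idh3g (0.944), Pwp2 (0.938) and the unnamed ENSMUSG00000091747 (0.936), and Hspa4 to Bms1 (0.927), Kpna2 (0.919) and Baz1a (0.910). For Hsp90aa1 the nearest were Mtdh (0.928) and Dis3 (0.925), and for Hspa9 Adss (0.931), Gmps (0.904) and the chaperonin subunit Cct8 (0.900).

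Partners of these chaperones were examined as lists. Of 21 HSP90 cochaperones, footprints of 1 rose and 1 fell in LPS + DEX against LPS, where 6.69% of all genes passed, with a median of 0.01 beside 0.02 over all genes. Cdc37, which loads protein kinases onto HSP90, rose, with 404 and 384 CPM in LPS + DEX and 299 and 285 CPM in LPS (0.43 ± 0.11, adjusted p = 0.0298). Ptges3, whose p23 protein holds HSP90 closed around clients such as the glucocorticoid receptor, fell, with 496 and 393 CPM in LPS + DEX and 576 and 614 CPM in LPS (-0.43 ± 0.12, adjusted p = 0.0486). In LPS against basal the footprints of Ptges3 rose by 0.49 ± 0.12 (adjusted p = 0.0269) and those of Tomm34, a cytosolic partner of HSP70 and HSP90, fell by 0.56 ± 0.16 (adjusted p = 0.0462). Tomm34 was also the 1 of 21 that passed in LPS + DEX against basal, at -0.63 ± 0.16 (adjusted p = 0.0355). Of all genes 7.62% passed in LPS and 4.63% in LPS + DEX against basal. Both Tomm34 calls were lost with median-of-ratios scaling. The calls of Cdc37 and Ptges3 in LPS + DEX against LPS were lost without any one of the 4 libraries compared. The rise of Ptges3 was lost without either LPS library or basal replicate 2, and the Tomm34 calls without 5 (LPS) and 4 (LPS + DEX) of the 6 libraries, each left out in turn.
In mRNA 0 of 21 HSP90 cochaperones passed for LPS against basal, where 10.7% of all genes passed, with 3 at an unadjusted p under 0.05 and 0 by limma-voom. In LPS + DEX against basal 3 rose and 1 fell, where 22.7% of all genes passed. Among those that rose was Tsc1, a cochaperone and tuberous sclerosis protein (1.04 ± 0.26, adjusted p = 0.0268). With median-of-ratios scaling 0 rose and 3 fell there, and the Tsc1 call was lost.

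Of 29 HSP70 cochaperones 26 are listed. In mRNA 2 of 26 rose in LPS against basal, where 10.7% of all genes passed, and 4 rose and 1 fell in LPS + DEX against basal, where 22.7% passed. With median-of-ratios scaling 1 rose and 1 fell in LPS, and 2 rose and 2 fell in LPS + DEX. On the main scale the list's medians of -0.01 and -0.13 lay below those of all genes, 0.26 and 0.28. Bag6, a holdase for membrane proteins on their way to the ER, had 296 and 252 CPM of mRNA in LPS + DEX, 239 and 245 CPM in LPS and 107 and 105 CPM in basal cells. It rose by 1.36 ± 0.13 (adjusted p = 0.00506) and 1.18 ± 0.13 (adjusted p = 0.0163), and passed under median-of-ratios scaling too (1.06 and 0.92). Its footprints had 177 and 205 CPM in LPS + DEX, 154 and 150 CPM in LPS and 196 and 199 CPM in basal cells, and its TE fell by 1.41 ± 0.18 (adjusted p = 0.0011) and 1.56 ± 0.18 (adjusted p = 0.001). The J-protein Dnajb1 rose by 0.96 ± 0.21 in each mRNA comparison (adjusted p = 0.0184 in LPS + DEX and 0.0339 in LPS), calls that median-of-ratios scaling ended. In LPS + DEX against basal the ER-membrane J-protein Dnajb12 rose by 1.04 ± 0.21 and the exchange factor Bag3 by 0.89 ± 0.18 (adjusted p = 0.014 and 0.0147), and the Bag3 call was lost with median-of-ratios scaling. In footprints 25 were tested, and 0 passed for LPS against basal, where 7.62% of all genes passed, with 7 at an unadjusted p under 0.05 and 0 by limma-voom. In LPS + DEX against basal 0 of 25 passed, where 4.63% of all genes passed, with 2 at an unadjusted p under 0.05 and 1 by limma-voom. In LPS + DEX against LPS 1 of 25 fell, where 3.55% of all genes fell. This was the translocon J-protein Sec63, with 103 and 103 CPM in LPS + DEX and 176 and 179 CPM in LPS (-0.78 ± 0.12, adjusted p = 0.00151), a call lost without LPS + DEX replicate 2. Against basal TE fell for 3 of 26 in LPS + DEX, where 12.2% of all genes fell and 2.68% rose. In LPS it rose for 1 and fell for 2, where 3.08% rose and 13.6% fell. With median-of-ratios scaling 1 rose and 2 fell in LPS + DEX and 2 rose and 1 fell in LPS.

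The heat-inducible list was little covered, with 3 of 14 genes listed, and Hspa1a and Hspa1b were not found by symbol among the listed genes. Hsf1, the heat shock transcription factor, had 106 and 87.7 CPM of mRNA in LPS + DEX, 73.9 and 101 CPM in LPS and 68.5 and 77.9 CPM in basal cells, and 16.4 to 30.9 CPM of footprints. Its mRNA changes of 0.39 ± 0.20 in LPS + DEX and 0.24 ± 0.20 in LPS against basal did not pass (adjusted p = 0.195 and 0.444). Its footprints lay below its mRNA by 2.23 ± 0.27 in LPS + DEX, 1.71 ± 0.27 in LPS and 1.55 ± 0.27 in basal cells. Hsbp1, which binds HSF1, was the 1 of 3 whose mRNA fell in LPS against basal, where 1.68% of all genes fell. It fell by 0.65 ± 0.16 (adjusted p = 0.0448), with 56.7 and 57.1 CPM in LPS and 89.5 and 89.9 CPM in basal cells. The Hsbp1 call was lost without any one of the 6 mRNA libraries. With median-of-ratios scaling of all 6 it passed, at -0.91 (limma, adjusted p = 0.0284). In LPS + DEX against basal the mRNA of 1 of the 3 genes also fell, where 4.23% of all genes fell. There Hsbp1 had 58.1 and 51.0 CPM in LPS + DEX.

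Of 19 further mitochondrial chaperones and proteases, 3 mRNAs rose in LPS against basal, where 9.03% of all genes rose and 1.68% fell. In LPS + DEX against basal 5 rose and 2 fell, where 18.5% of all genes rose and 4.23% fell. The membrane protease subunit Afg3l2 rose by 0.87 ± 0.16 in LPS + DEX and 0.84 ± 0.16 in LPS (adjusted p = 0.0121 and 0.026), and the matrix protease Lonp1 by 0.85 ± 0.14 and 0.62 ± 0.14 (adjusted p = 0.00941 and 0.0339). The mitochondrial HSP90 gene Trap1 rose by 0.83 ± 0.17 in LPS + DEX (adjusted p = 0.0144). Dnajc19, a J-protein of the import motor in which Hspa9 works, moved the other way, with mRNA of 46.6 and 49.2 CPM in LPS + DEX and 80.0 and 123 CPM in basal cells (-1.03 ± 0.23, adjusted p = 0.019). With median-of-ratios scaling 1 rose and 5 fell in LPS + DEX and none passed in LPS, so the balance of directions in this list flips with the scaling, and the calls of Afg3l2, of Trap1 and of Lonp1 in LPS were lost. Every mRNA call named here for a partner was lost without mRNA LPS + DEX replicate 1 for LPS + DEX, and without either mRNA LPS library for LPS. Without mRNA basal replicate 1 the calls of Dnajb1 and Lonp1 in LPS and of Tsc1 in LPS + DEX were lost too. Those of Dnajb12, Dnajc19, Trap1 and Tsc1 in LPS + DEX were also lost without mRNA LPS + DEX replicate 2, and those of Dnajb1 and Lonp1 in LPS without either mRNA LPS + DEX library. In footprints 2 of 19 fell in LPS against basal, where 7.62% of all genes passed. They were Dnajc19 (-0.92 ± 0.24, adjusted p = 0.0306) and the intermembrane-space protease Htra2 (-0.50 ± 0.13, adjusted p = 0.0311). The Htra2 call was lost with median-of-ratios scaling, and each of the 2 was lost without 4 of the 6 single libraries. In both footprint comparisons of LPS + DEX 0 of 19 passed, where 6.69% of all genes passed against LPS and 4.63% against basal. At an unadjusted p under 0.05 there were 3 against LPS and 2 against basal, and 0 and 1 passed by limma-voom. TE fell for 3 of 19 in LPS + DEX and for 3 of 19 in LPS against basal and rose for none. Of all genes 12.2% and 13.6% fell in these comparisons, and 2.68% and 3.08% rose. With median-of-ratios scaling 1 of the 19 rose and 0 fell in LPS + DEX and 0 passed in LPS. Among the 21 HSP90 cochaperones TE rose for 1 and fell for 2 in LPS + DEX and fell for 3 in LPS, beside the same shares of all genes. With that scaling 1 rose and 0 fell in each.

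Other chaperone families served as a comparison. Footprints of 0 of 8 subunits of the cytosolic CCT chaperonin passed in any comparison of treatments, where 4.63% to 7.62% of all genes passed. Of the 8, 1 to 3 were at an unadjusted p under 0.05 and 0 passed by limma-voom. In mRNA of LPS + DEX against basal 18.5% of all genes rose and 4.23% fell. There 2 of 8 CCT genes rose, and 3 of 20 ER chaperones rose and 2 fell. With median-of-ratios scaling no CCT gene passed and 1 ER chaperone rose and 6 fell. In footprints, of 20 ER chaperones 5 fell and none rose in LPS + DEX against LPS, where 3.55% of all genes fell and 3.14% rose, the comparison in which Hspa8 and Hsp90ab1 rose, and the count was the same with median-of-ratios scaling. Hsp90b1, the ER member of the HSP90 family, had 3274 and 2943 CPM of footprints in LPS + DEX, 3917 and 3871 CPM in LPS and 3369 and 3281 CPM in basal cells. In LPS + DEX against LPS it fell (-0.33 ± 0.07, adjusted p = 0.0145), while its cytosolic relative Hsp90ab1 measured 0.41 ± 0.08. The ER HSP70 gene Hspa5 measured -0.13 ± 0.07 (adjusted p = 0.313), beside 0.46 ± 0.07 for Hspa8. The difference between the 2 families' changes was not tested. The Hsp90b1 call was lost without LPS replicate 1, LPS replicate 2 or LPS + DEX replicate 2 of the footprint libraries. Of the others that fell, Canx (-0.33) and Manf (-0.37) were lost without any one of the 4 libraries compared. Erp44 (-0.65) was lost without LPS replicate 1 or either LPS + DEX library, and Pdia6 (-0.51) without LPS + DEX replicate 2. Against basal Hsp90b1 footprints measured 0.23 ± 0.07 in LPS (limma, adjusted p = 0.0733) and -0.10 ± 0.07 in LPS + DEX (adjusted p = 0.535). Of 20 ER chaperones 0 passed in LPS against basal, where 7.62% of all genes passed, with 3 at an unadjusted p under 0.05 and 1 by limma-voom. In LPS + DEX against basal 4 fell and 0 rose, where 4.63% of all genes passed, 157 higher and 253 lower. The 4 were Manf (-0.45), Pdia6 (-0.39), Canx (-0.37) and Pdia3 (-0.30). Each of these calls was lost without either LPS + DEX footprint library, and those of Canx and Pdia3 also without either LPS library. With median-of-ratios scaling 1 rose in LPS, Hsp90b1 at 0.29 (adjusted p = 0.036), and 2 fell in LPS + DEX.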

How the data were processed

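RAW264 libraries of poly(A) mRNA and of ribosome-protected fragments were sequenced on an Ion PGM, per the labels' protocols. The deposited values were CPM (counts scaled to a common library total) plus 1, a unit read from the values, with no scaling by gene length. The sources used here name no aligner, build or annotation. Of 9621 gene identifiers 9521 were matched to a symbol, and each listed gene exceeds a value of 16 in at least 1 library. Reads per gene and library totals were recovered from the CPM steps within 0.1 reads.

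Genes that held the equivalent of 10 or more reads, at the depth of the median library, in 2 or more libraries, and 15 or more reads over all of them, were tested with limma 3.58.1 (limma-trend, R 4.3.3) on log2(CPM + 1), a scale that understates changes of low genes. The mRNA fit (6 libraries) held 9277 genes, the footprint fit (6 libraries) 8847 and the joint fit over 12 libraries 9412, where the TE change is the interaction of assay and treatment. Tests were two-sided with Benjamini-Hochberg adjustment over all genes of a fit. All 9 genes were tested everywhere. The treatments were given as basal, LPS and LPS + DEX per the labels, with 2 libraries in each of 6 groups, and a library left alone in its group was assumed to vary like the others. A count model had been planned and was replaced by limma-trend on the scale of the deposited values. Limma-voom on the recovered reads was run as an alternative.

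All 9 genes are named in every comparison. Of each wider list (HSP90 and HSP70 cochaperones, heat-inducible genes, mitochondrial chaperones and proteases, with CCT and ER chaperones for comparison) up to 4 genes that passed with the largest change could be named, at most 10 in a comparison, and Hsf1, Hspa5 and Hsp90b1 whatever their result. The 3 most alike genes were ranked by Pearson's r, and some of them are not reported here. The genes and lists were chosen with earlier results of these data known.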

Additional observations from a re-analysis of the deposited data

How the results depend on the processing

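Median-of-ratios scaling, a pseudocount of 2, no filter on low values, a replicate block, limma-voom on recovered reads and leaving out each library in turn were tried. Limma-voom was chosen after seeing the data, in place of a planned count test that was not run. The cause of the differences was not tested, except that fewer libraries leave fewer degrees of freedom. Of the 9 genes, 2 passed for mRNA in LPS against basal, and 1 with median-of-ratios scaling, 1 with no filter and 0 with the replicate block. For footprints in LPS + DEX against LPS 2 passed, and 1 with no filter. When a library was left out, 0 to 2 passed for mRNA in LPS and 0 to 4 in LPS + DEX against basal. For footprints 0 to 1 passed in LPS and 1 to 2 in LPS + DEX against basal, and 1 to 2 in LPS + DEX against LPS. For TE changes 1 to 3 passed in LPS and 1 to 4 in LPS + DEX against basal, and for footprints against mRNA 8 to 9 in basal cells and 7 to 9 in LPS.

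Over all genes, 994 passed for mRNA in LPS against basal, 501 with median-of-ratios scaling, 390 with the replicate block, 464 by limma-voom and 7 to 2178 without a library. For LPS + DEX against basal 2106 passed, and 1 to 2876 without a library. For footprints 674 passed in LPS (281 with no filter, 307 to 727 without a library), 592 in LPS + DEX against LPS (273 with no filter, 94 to 894 without a library) and 410 in LPS + DEX against basal (132 with no filter, 619 by limma-voom, 97 to 476 without a library). For TE changes 1567 passed in LPS (870 by limma-voom, 736 to 2161 without a library) and 1401 in LPS + DEX against basal (863 with median-of-ratios scaling, 546 to 1893 without a library). For LPS + DEX against LPS the TE of 5 passed, with 20 at a pseudocount of 2, 0 by limma-voom and 0 to 51 without a library. Median-of-ratios scaling changed the split of calls from 838 higher and 156 lower to 184 and 317 for mRNA in LPS, from 1714 and 392 to 720 and 826 for mRNA in LPS + DEX against basal, from 290 and 1277 to 558 and 504 for TE in LPS and from 252 and 1149 to 507 and 356 for TE in LPS + DEX. It did so too from 292 and 382 to 378 and 279 for footprints in LPS, from 157 and 253 to 198 and 186 for footprints in LPS + DEX against basal, and from 3148 and 1628 to 2361 and 2368 for footprints against mRNA in basal cells.

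Values that changed sign with median-of-ratios scaling, none of them a call, were -0.20 for Hsp90aa1, -0.054 for Hspa4, -0.022 for Hsph1 and -0.15 for Hspa9 (mRNA, LPS), -0.10 for Hspa4 and -0.21 for Hspa9 (mRNA, LPS + DEX against basal) and 0.045 for Hsp90aa1 (footprints, LPS). In TE they were 0.21 for Hsp90aa1, 0.29 for Hspa4, 0.0901 for Hsph1 and 0.25 for Hspa9 in LPS, and 0.10 for Hspa8, 0.23 for Hsph1 and 0.12 for Hspa9 in LPS + DEX against basal. By limma-voom the TE change of Hspa4 in LPS was 0.017.

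Leaving out a library also turned the sign of values that were no calls, with these ranges. In mRNA of LPS + DEX against LPS they were -0.50 to 0.13 for Dnaja1, -0.42 to 0.24 for Hsp90aa1, -0.17 to 0.13 for Hspa4, -0.22 to 0.17 for Hspa9 and -0.49 to 0.13 for Hspd1. In mRNA against basal they were -0.35 to 0.31 for Hsp90aa1 and -0.010 to 0.18 for Hspa9 in LPS + DEX, and -0.11 to 0.24 for Hsp90aa1 and -0.088 to 0.31 for Hspa9 in LPS. In footprints of LPS + DEX against LPS they were -0.022 to 0.25 for Dnaja1, -0.084 to 0.12 for Hsp90aa1, -0.039 to 0.024 for Hspa4 and -0.19 to 0.032 for Hspe1. In footprints of LPS + DEX against basal they were -0.012 to 0.26 for Dnaja1, -0.10 to 0.10 for Hsp90aa1, -0.080 to 0.099 for Hspd1 and -0.13 to 0.14 for Hspe1. In footprints of LPS against basal they were -0.094 to 0.11 for Dnaja1, -0.062 to 0.031 for Hsp90aa1, -0.019 to 0.074 for Hspa8, -0.047 to 0.16 for Hspa9, -0.00081 to 0.18 for Hspd1, -0.049 to 0.22 for Hspe1 and -0.056 to 0.13 for Hsph1. In TE of LPS + DEX against LPS they were -0.013 to 0.61 for Dnaja1, -0.23 to 0.43 for Hsp90aa1, -0.14 to 0.16 for Hspa4, -0.36 to 0.032 for Hspa9, -0.21 to 0.41 for Hspd1 and -0.043 to 0.53 for Hspe1. In TE against basal they were -0.31 to 0.35 for Hsp90aa1, -0.14 to 0.15 for Hspa4 and -0.25 to 0.050 for Hsph1 in LPS + DEX, and -0.26 to 0.094 for Hsp90aa1, -0.15 to 0.15 for Hspa4 and -0.25 to 0.15 for Hspa9 in LPS. Calls gained without a library were the footprints of Hsp90ab1 in LPS (-0.31 without footprint basal replicate 2) and in LPS + DEX (0.27 without footprint basal replicate 1), those of Hspa4 in LPS (0.28 without footprint basal replicate 1), and the TE of Hspd1 in LPS + DEX (0.79 without mRNA LPS + DEX replicate 2), all against basal.

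Libraries with the same replicate number did not deviate together, with correlations of their deviations of -0.272 to 0.117 between mRNA groups, -0.136 to 0.218 between footprint groups and -0.0754 to -0.00762 between mRNA and footprints of a treatment, so the numbers were not taken to pair them. With the replicate block 3 of 9 genes, against 4, passed for mRNA in LPS + DEX against basal, with Dnaja1 lost (-0.88, adjusted p = 0.056), and in LPS Hspa8 and Hspe1 were lost (adjusted p = 0.0667 and 0.0501). No other call of the 9 genes changed under it, and 1720 genes in all passed for mRNA in LPS + DEX against basal, 690, 606 and 417 for footprints in LPS against basal, LPS + DEX against LPS and LPS + DEX against basal, and 1489, 4 and 1277 for TE in the same comparisons. The 2 libraries in each group limit what could be detected.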
